A study of Mus musculus with 6 samples.

Results

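Feedback targets of canonical Wnt signalling and the TCF/LEF transcription factors were examined in aortic roots of C57BL6/J mice. The aortic root is the stretch of the aorta next to the heart and holds the aortic valve. The 10 genes were taken by symbol, 6 feedback genes (Axin2, Nkd1, Nkd2, Apcdd1, Znrf3 and Rnf43) and 4 factors (Lef1, Tcf7, Tcf7l1 and Tcf7l2), out of 23420 gene symbols in the table of counts. All 10 passed the filter on low counts that left 15096 genes for the test. RNA of 3 roots labelled Sost-/- (KO 1 to 3) and of 3 roots labelled Sost+/+ (WT 1 to 3) was sequenced in bulk. Mice of both groups were put on high-cholesterol chow at 4 months and kept on it for 8 months, until the roots were taken at 12 months. No animals are named in the labels, so a p-value here reflects only how much these roots vary. The comparison asks how loss of sclerostin, a secreted inhibitor that the Sost gene encodes, changes expression in a mouse model of calcific aortic valve disease.

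In canonical Wnt signalling, a ligand at the cell surface stops the breakdown of beta-catenin, which then enters the nucleus and activates genes together with TCF/LEF factors. Several of the genes switched on in this way inhibit the pathway in turn and so close a feedback loop. They are widely used as a readout of pathway activity, and in the valve and the arterial wall Wnt signalling is studied for its links with matrix production and calcification.

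Total counts ran from 38870673 to 41803775 in the libraries labelled Sost-/- and from 37023586 to 48172863 in those labelled Sost+/+. Sost was not lower in the libraries labelled Sost-/-, at 30.6 ± 20.9 CPM, against 10.4 ± 4.66 CPM in those labelled Sost+/+ (mean ± SD, n = 3 each, edgeR adjusted p = 0.124). CPM is the count relative to the TMM-scaled library total. The target gene therefore goes against the labels, and every direction below is that of the libraries labelled Sost-/- relative to those labelled Sost+/+. Gene counts cannot show whether these reads come from a part of the gene that the allele keeps. The cell type markers of muscle also separated the groups. Of 12 smooth muscle markers 9 rose and 0 fell (edgeR, adjusted p under 0.05), where 2.18% of all tested genes rose and 0.371% fell. Their summed level was 6794 to 8321 CPM in KO and 4317 to 5560 CPM in WT libraries. Des, which encodes desmin, a filament protein that heart muscle also makes, held 23.4% to 38.2% of that sum in KO and 49.8% to 68.2% in WT libraries and had a log2 fold change of -0.34 (edgeR adjusted p = 0.206). Without Des the sum was 4199 to 6377 CPM in KO and 1416 to 2790 CPM in WT libraries. Of 12 cardiomyocyte markers 0 rose and 1 fell, with a summed level of 56150 to 71010 CPM in KO and 85890 to 92080 CPM in WT libraries. None of the markers of either list was at 0 in every library. Fibroblast markers summed to 4563 to 5331 CPM in KO and 3986 to 4321 CPM in WT libraries, and adipocyte markers to 91.6 to 283 CPM in KO and 30.0 to 95.7 CPM in WT libraries. The summed endothelial (891 to 1231 CPM in KO, 1063 to 1212 CPM in WT) and macrophage markers (709 to 1196 CPM in KO, 752 to 841 CPM in WT) overlapped between the groups. Those of Schwann cells (35.7 to 50.9 CPM in KO, 27.6 to 33.3 CPM in WT) did not overlap. In bulk tissue fewer cells of a type and less RNA per cell cannot be told apart.

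The results turn on Nkd1, which is shown here beside its paralog Nkd2 and beside Axin2, a common readout of the pathway. The stretches are the 250 bases before the start annotated by RefSeq (build GRCm38.p6, the assembly of mm10), on the gene's own strand. They lie at chr8:88527383-88527632 on the plus strand for Nkd1, at chr13:73847632-73847881 on the minus strand for Nkd2 and at chr11:108920099-108920348 on the plus strand for Axin2. The Nkd1 start used by RefSeq lies 6279 bases inside the gene as GENCODE M21 draws it. Capitals would mark the TCF/LEF consensus CTTTGAA or CTTTGAT on either strand, and none occurs in these stretches.
Nkd1: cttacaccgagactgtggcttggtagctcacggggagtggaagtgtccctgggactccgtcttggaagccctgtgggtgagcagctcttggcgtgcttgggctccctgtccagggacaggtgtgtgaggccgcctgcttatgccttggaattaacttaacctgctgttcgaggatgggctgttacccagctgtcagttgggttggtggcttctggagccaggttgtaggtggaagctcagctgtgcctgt
Nkd2: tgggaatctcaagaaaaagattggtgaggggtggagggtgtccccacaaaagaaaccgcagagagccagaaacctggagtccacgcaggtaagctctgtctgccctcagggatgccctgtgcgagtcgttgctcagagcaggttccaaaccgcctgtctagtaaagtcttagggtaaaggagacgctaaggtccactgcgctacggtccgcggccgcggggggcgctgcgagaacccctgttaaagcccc
Axin2: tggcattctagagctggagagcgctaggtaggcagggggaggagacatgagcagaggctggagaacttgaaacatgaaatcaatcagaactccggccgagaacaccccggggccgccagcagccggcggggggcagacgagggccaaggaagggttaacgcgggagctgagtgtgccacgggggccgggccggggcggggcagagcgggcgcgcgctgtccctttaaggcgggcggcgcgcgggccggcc

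The 3 stretches differ in base composition. G and C made up 58.4% of the Nkd1 stretch, 58.4% of the Nkd2 stretch and 69.2% of the Axin2 stretch, and the dinucleotide CG occurred 6, 14 and 24 times in that order. RefSeq windows from 250 bases before to 50 after a start were at hand for 8 of the 10 genes, 14 windows in all, and not for Apcdd1 and Znrf3. None of the 14 held CTTTGAA or CTTTGAT on either strand, and 8.65% of all 32851 mouse windows did. With the 6-letter core CTTTGA, 1 gene held a match, Lef1. The match was in its window at chr3:131156044-131156343, inside the gene, and not in its other windows. Of all windows 16.0% held the core, which is a share of windows and not of genes. These counts say only whether the letters are in these windows.

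Of the 10 genes, 1 rose in the libraries labelled Sost-/-, the feedback gene Nkd1, and 0 fell (edgeR, adjusted p under 0.05). Over all tested genes 2.55% passed, 2.18% rose and 0.371% fell. The log2 fold change was above 0 for 9 of the 10 genes, against 51.3% of all tested genes. In 6 of the 10 all KO libraries lay above all WT libraries (Nkd1, Nkd2, Apcdd1, Znrf3, Lef1 and Tcf7l1), as in 14.3% of all tested genes, and in 0 of the 10 all KO libraries lay below, as in 11.1%. At an unadjusted p under 0.05, 6 of the 10 were higher (Axin2, Nkd1, Nkd2, Apcdd1, Znrf3 and Tcf7l1), as were 11.6% of all tested genes, and 0 of the 10 were lower, as were 8.62%. The median log2 fold change was 0.36 over the 10 genes and 0.0066 over all tested genes. A median above 0 was not particular to the 10 genes. It was also above 0 for markers of smooth muscle (1.55), adipocytes (1.41), Schwann cells (0.47), fibroblasts (0.33) and macrophages (0.28). For endothelial (-0.115), cardiomyocyte (-0.47) and T cell markers (-0.72) it was below 0. Whether cell make-up plays a part in the values of the 10 genes was not tested. The 10 genes share these 6 libraries and are not independent of each other. They were chosen with earlier results of these data known, so setting their shares beside those of all tested genes is no independent comparison.

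**Figure D1:**
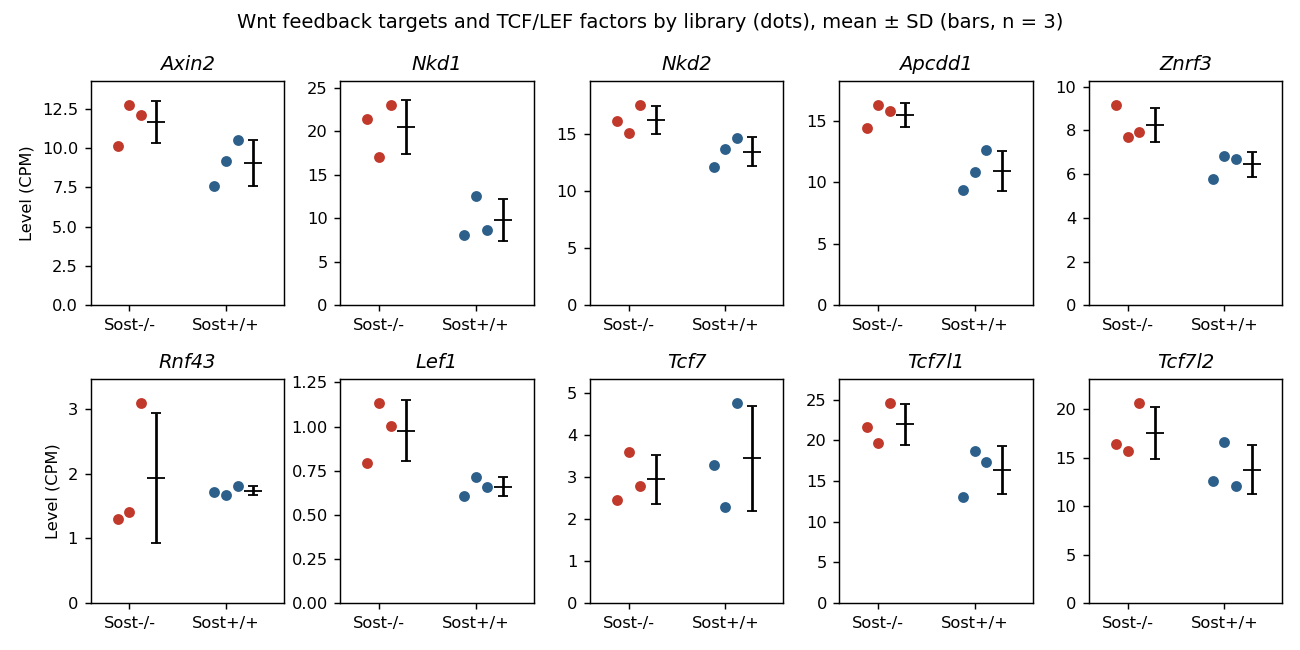
Level of each of the 10 genes in CPM (vertical axes, each starting at 0) in the 3 libraries labelled Sost-/- (red) and the 3 labelled Sost+/+ (blue), with the mean ± SD beside each group. The groups are apart in Nkd1, Nkd2, Apcdd1, Znrf3, Lef1 and Tcf7l1, with the widest gap relative to level in Nkd1, and overlap in Axin2, Rnf43, Tcf7 and Tcf7l2.

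Nkd1 encodes naked cuticle 1, an intracellular inhibitor that binds Dishevelled and is itself switched on by Wnt signalling. Its position is chr8:88521354-88594884, plus strand (mm10, ENSMUSG00000031661.12 in GENCODE M21, which also gives the positions of the other genes). Its level was 21.4, 17.1 and 23.0 CPM in KO 1 to 3, against 8.12, 12.6 and 8.67 CPM in WT 1 to 3. KO 2 was the lowest of its group and WT 2 the highest of its group, and the groups did not overlap. The mean was 20.5 ± 3.07 CPM in KO and 9.79 ± 2.42 CPM in WT libraries (SD, n = 3 each), 2.09-fold, with a log2 fold change of 1.07 (SE 0.18, edgeR adjusted p = 0.0247). The counts behind these levels ran from 316 to 963. The call ended without WT 1 (log2 fold change 0.93, edgeR adjusted p = 0.124), without WT 3 (0.98, adjusted p = 0.0646) and without KO 3 (0.97, adjusted p = 0.109). Over all tested genes edgeR called 0 without WT 1, 118 without WT 3 and 10 without KO 3. DESeq2 called Nkd1 higher with each of the 6 libraries left out, with an adjusted p of 0.0033 at most. These DESeq2 fits were added after seeing the data and called from 368 (without KO 3) to 1311 (without WT 3) of all tested genes.

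Nkd2 (chr13:73818534-73847631, minus strand) encodes the other mouse naked cuticle protein, which also binds Dishevelled. It stood at 16.2, 15.1 and 17.5 CPM in KO 1 to 3, against 12.1, 13.7 and 14.6 CPM in WT 1 to 3. The groups did not overlap, but the highest WT and the lowest KO library were close. The log2 fold change of Nkd2 was 0.27 (SE 0.11, edgeR adjusted p = 0.219) and did not pass. Per kb of merged exons, the scale on which levels of different genes can be compared, Nkd1 exceeded Nkd2 in each KO library, at 4.69, 3.74 and 5.04 against 3.35, 3.13 and 3.64 CPM per kb. In each WT library Nkd1 was below Nkd2, at 1.78, 2.76 and 1.90 against 2.51, 2.84 and 3.03 CPM per kb. The order of the paralogs thus differed between all KO and all WT libraries, with the narrowest gap in WT 2. This pair was singled out after its values were seen.

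Axin2 encodes a scaffold of the complex that breaks down beta-catenin (chr11:108920349-108950783, plus strand). Axin2 was at 10.1, 12.7 and 12.1 CPM in KO 1 to 3, against 7.56, 9.16 and 10.5 CPM in WT 1 to 3. WT 3 lay above KO 1, so the groups overlapped. Axin2 did not pass, with a log2 fold change of 0.36 (SE 0.15, edgeR adjusted p = 0.224), and 0.23 without WT 1. An antisense gene model overlaps exons of Axin2 in GENCODE M21, and since the strand setting of the counting is not given, its reads may be included.

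Apcdd1 encodes a membrane-bound Wnt inhibitor and lies on chromosome 18. Its level was 14.4, 16.3 and 15.8 CPM in KO 1 to 3, against 9.35, 10.9 and 12.6 CPM in WT 1 to 3. All KO libraries were above all WT libraries, with KO 1 lowest among the KO and WT 3 highest among the WT libraries. Among the genes that did not pass, Apcdd1 came closest to the threshold, with a log2 fold change of 0.50 (SE 0.13, edgeR adjusted p = 0.0852). The DESeq2 Wald test called Apcdd1 higher (adjusted p = 0.0230), as did limma-voom with library weights (adjusted p = 0.0420) and edgeR scaled by total counts only (adjusted p = 0.0440). Of all tested genes these settings called 5.05%, 2.93% and 4.82% higher. With 1 library left out edgeR never called Apcdd1 (adjusted p from 0.0639 to 0.299). The DESeq2 call ended without WT 1 (adjusted p = 0.155), WT 2 (adjusted p = 0.092), KO 2 (adjusted p = 0.125) or KO 3 (adjusted p = 0.1925).

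Znrf3 and Rnf43 encode related membrane ubiquitin ligases that remove Frizzled receptors from the cell surface. Znrf3 (chr11:5276324-5444847, minus strand) was at 9.16, 7.70 and 7.92 CPM in KO 1 to 3, against 5.79, 6.84 and 6.70 CPM in WT 1 to 3. Its groups did not overlap, and the log2 fold change of 0.36 (SE 0.14, edgeR adjusted p = 0.194) did not pass. Rnf43 (chr11:87662722-87735539, plus strand) was at 1.31, 1.41 and 3.10 CPM in KO 1 to 3, against 1.73, 1.68 and 1.81 CPM in WT 1 to 3. KO 3 alone was above the WT libraries, and KO 1 and KO 2 were below them. The log2 fold change of Rnf43 was 0.16 (SE 0.34, edgeR adjusted p = 0.832) and changed sign to -0.36 without KO 3.

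**Figure D2:**
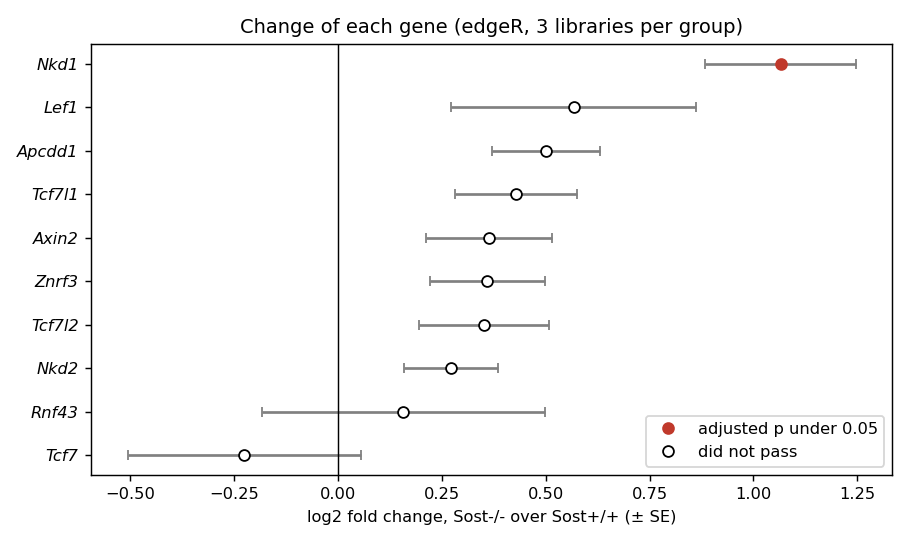
Log2 fold change, Sost-/- over Sost+/+, of each of the 10 genes (horizontal axis, bars ± SE, edgeR with 3 libraries per group), ordered by size. Nkd1 at 1.07 is the 1 gene that passed (filled), 8 genes lie between 0.16 and 0.57, and Tcf7 lies at -0.23.

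The factors that carry beta-catenin to DNA are Tcf7l1, Tcf7l2, Tcf7 and Lef1. None of the 4 passed the test. Tcf7l1 (chr6:72626378-72789254, minus strand) is known mainly as a repressor of Wnt targets. It was at 21.7, 19.6 and 24.6 CPM in KO 1 to 3, against 13.0, 18.7 and 17.3 CPM in WT 1 to 3. The groups did not overlap, although KO 2 and WT 2 were close to each other. Its log2 fold change was 0.43 (SE 0.15, edgeR adjusted p = 0.154), and 0.27 without WT 1. Antisense gene models overlap exons of Tcf7l1 and of Lef1 in GENCODE M21.

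Tcf7l2 (chr19:55741820-55933654, plus strand) can activate or repress depending on bound beta-catenin. Tcf7l2 was at 16.4, 15.7 and 20.7 CPM in KO 1 to 3, against 12.6, 16.7 and 12.1 CPM in WT 1 to 3. WT 2 exceeded KO 1 and KO 2, so the groups overlapped. Its log2 fold change of 0.35 (SE 0.16, edgeR adjusted p = 0.249) did not pass, and was 0.22 without KO 3.

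Lef1 (chr3:131110471-131224356, plus strand), a factor that is itself a Wnt target in many tissues, had the fewest counts of the 10, 24 to 46 per library. It was at 0.794, 1.135 and 1.002 CPM in KO 1 to 3, against 0.6055, 0.712 and 0.659 CPM in WT 1 to 3. All KO libraries lay above all WT libraries, with KO 1 next to WT 2. Lef1 did not pass, with a log2 fold change of 0.57 (SE 0.30, edgeR adjusted p = 0.318).

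Tcf7 encodes a factor best known from T cells (chr11:52252371-52283014, minus strand). Tcf7 was at 2.45, 3.60 and 2.79 CPM in KO 1 to 3, against 3.30, 2.29 and 4.78 CPM in WT 1 to 3. The KO libraries lay within the range of the WT libraries, and WT 3 was the highest. Its log2 fold change was -0.23 (SE 0.28, edgeR adjusted p = 0.687), and it turned to 0.068 without WT 3. Markers of T cells were at a summed 21.7, 37.8 and 34.8 CPM in KO 1 to 3, against 46.8, 26.5 and 75.3 CPM in WT 1 to 3, also highest in WT 3. Of 11 measured T cell markers 0 rose and 0 fell (edgeR), and the log2 fold changes ran from -1.33 to -0.019. At an unadjusted p under 0.05, 0 were higher and 4 lower, where 11.6% of all tested genes were higher and 8.62% lower. The part of T cells in the Tcf7 level was not tested.

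Per kb of merged exons Tcf7l1 was the highest of the 10 genes in both groups, with 5.60 ± 0.637 CPM per kb in KO and 4.16 ± 0.760 CPM per kb in WT libraries (mean ± SD, n = 3 each). In KO libraries Nkd1 came next, at 4.49 ± 0.674 CPM per kb, and its range overlapped with that of Tcf7l1 by a narrow margin. Within each KO library Nkd1 was below Tcf7l1, at 4.69, 3.74 and 5.04 against 5.52, 5.005 and 6.27 CPM per kb in KO 1 to 3. Nkd2, Axin2 and Tcf7l2 followed, and Axin2 and Tcf7l2 did not differ beyond their spread. Apcdd1, Tcf7 and Znrf3, around 1 CPM per kb, overlapped with each other. In WT libraries Nkd2 came after Tcf7l1, and the range of each gene from Nkd2 down to Znrf3 overlapped with that of its neighbour in the order. Within each WT library Nkd1 was still below Nkd2. Rnf43 and Lef1 stood apart at the low end in both groups, with Lef1 at 0.111 ± 0.0195 CPM per kb in KO and 0.0750 ± 0.00607 CPM per kb in WT libraries. The place of Tcf7l2 rests on the length used, 8775 bases of merged exons against 3715 bases of the longest transcript. Per kb of the longest transcript Tcf7l2 was at 4.73 ± 0.730 CPM in KO and 3.71 ± 0.677 CPM in WT libraries, apart from Axin2 at 2.735 ± 0.320 CPM in KO and 2.13 ± 0.344 CPM in WT libraries, and overlapped with Nkd2 in both groups. Tcf7l1 stayed the highest of the 10 on that scale, and Nkd1 no longer overlapped with it in KO libraries.

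The make-up of the TCF/LEF level was given as the percent of the summed CPM per kb of the 4 factors. Tcf7l1 made up 65.6%, 60.3% and 63.9% in KO 1 to 3, against 54.6%, 62.5% and 57.4% in WT 1 to 3. Tcf7 made up 11.1%, 16.5% and 10.9% in KO 1 to 3, against 20.7%, 11.5% and 23.7% in WT 1 to 3. Tcf7l2 averaged 22.6% ± 1.29 in KO and 22.2% ± 3.70 in WT libraries (SD, n = 3 each), and Lef1 averaged 1.27% ± 0.257 in KO and 1.06% ± 0.0808 in WT libraries. WT 2 lay among or next to the KO libraries in the shares of Tcf7l1 and Tcf7, and WT 1 and WT 3 held more Tcf7. The differences were 5.14 percentage points for Tcf7l1, -5.77 for Tcf7, 0.42 for Tcf7l2 and 0.21 for Lef1. The levels of these shares depend on the length used. Per kb of the longest transcript Tcf7l2 made up 35.2% in KO and 34.9% in WT libraries and Lef1 2.01% in KO and 1.70% in WT libraries, and with no division by length Tcf7l2 made up 40.3% in both groups. Tcf7l1 made up 53.8% in KO and 50.1% in WT libraries per kb of the longest transcript, and Tcf7 9.00% in KO and 13.3% in WT libraries. With no division by length Tcf7l1 made up 50.5% in KO and 47.5% in WT libraries, and Tcf7 6.87% in KO and 10.3% in WT libraries. None of the 4 passed an exact permutation test, two-sided (p = 0.2 for Tcf7l1, Tcf7 and Lef1, adjusted over the 4 tests 0.267, and p = 0.9 for Tcf7l2). With 3 libraries per group p cannot be lower than 0.1. The summed TCF/LEF level itself was 8.41, 8.29 and 9.81 CPM per kb in KO 1 to 3, against 6.07, 7.62 and 7.69 CPM per kb in WT 1 to 3.

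**Figure D3:**
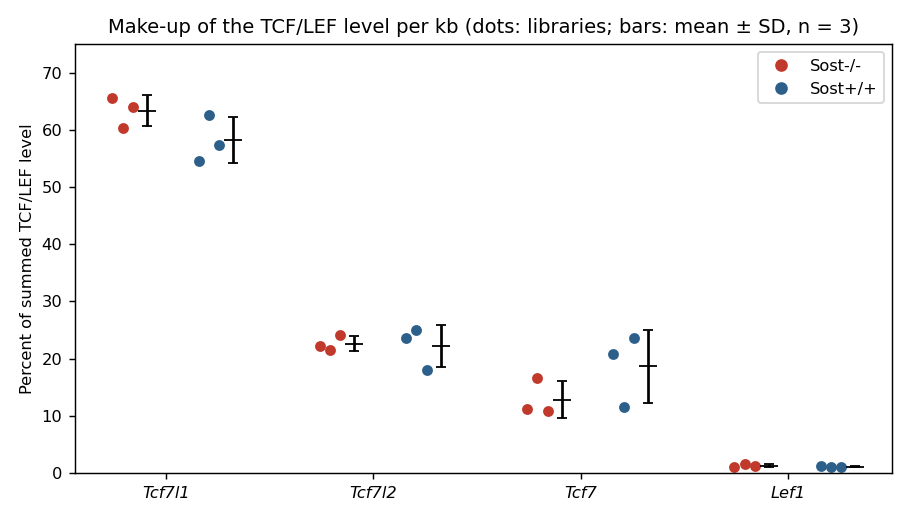
Share of each TCF/LEF gene in their summed level per kb of merged exons (percent, vertical axis), by library (dots, red Sost-/-, blue Sost+/+) with mean ± SD, n = 3. Tcf7l1 takes more than any other factor in all 6 libraries, between 54.6% and 65.6%, and Lef1 takes 1.56% or less.

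Nkd1 was set beside the smooth muscle markers because both separated the groups. The summed cardiomyocyte, fibroblast and Schwann cell markers did not overlap between the groups either, and no ratio of Nkd1 to those sums was taken. WT 2, the WT library with the most Nkd1, was also the WT library with the most smooth muscle signal, at a summed 5560 CPM. KO 2, the KO library with the least Nkd1, had the least of its group, at 6794 CPM. The log2 ratio of Nkd1 to the summed markers was -8.44, -8.64 and -8.50 in KO 1 to 3, against -9.06, -8.79 and -9.004 in WT 1 to 3. The ratio did not overlap between the groups, and its mean was 0.42 higher in KO libraries on the log2 scale (p = 0.1 in the exact permutation test, two-sided, the lowest it can give). This direction rests on Des. With Des left out of the sum, an alternative chosen after seeing the data, the ratio was -7.94, -7.94 and -8.12 in KO 1 to 3, against -7.61, -7.795 and -7.35 in WT 1 to 3. The groups again did not overlap, but the KO libraries were the lower ones, with a difference of -0.41 (p = 0.1 in the exact permutation test). With any 1 of the other 11 markers left out the difference was 0.41 to 0.55. The ratio thus gives no direction for Nkd1 relative to smooth muscle markers. With the mean log2 level of the 12 markers as a covariate, the log2 fold change of Nkd1 was 0.08 (edgeR adjusted p = 0.9997), and with that of the 12 cardiomyocyte markers it was 0.98 (edgeR adjusted p = 1). Neither marker score overlapped between the groups, at 8.22 to 8.72 in KO and 6.82 to 7.67 in WT libraries for smooth muscle and at 11.40 to 11.58 in KO and 11.97 to 12.00 in WT libraries for cardiomyocytes, so these values extrapolate beyond the libraries measured. With either covariate 0 genes passed over the whole table, with 407 and 266 at an unadjusted p under 0.05.

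**Figure D4:**
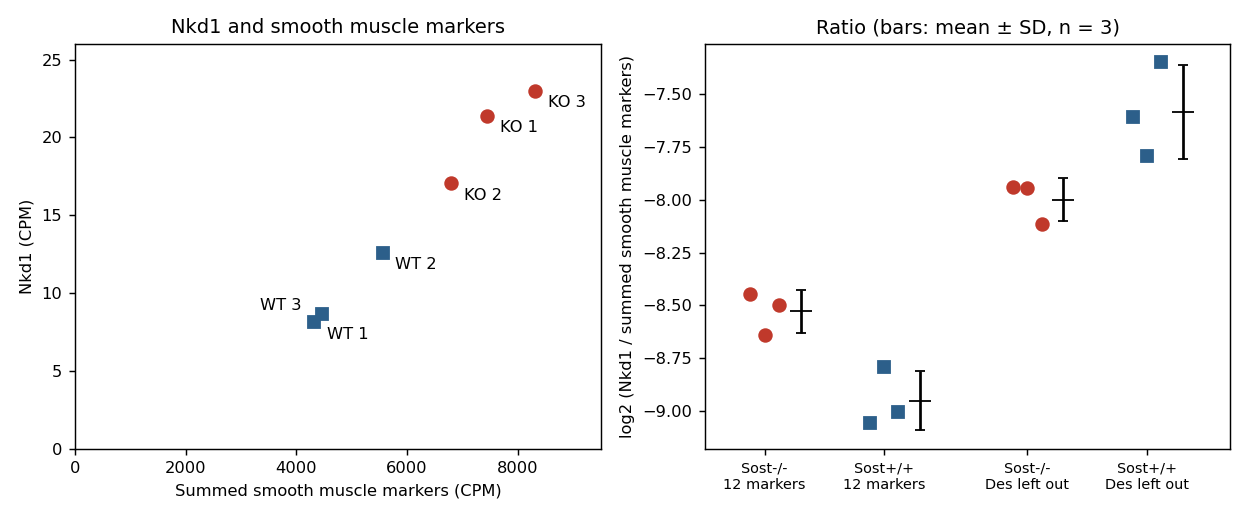
Left, Nkd1 (CPM) against the summed level of 12 smooth muscle markers (CPM) in each library (red circles Sost-/-, blue squares Sost+/+); right, the log2 ratio of the 2 by group with mean ± SD, n = 3, for the sum of 12 markers and with Des left out. The ratio is -8.64 or more in KO and -8.79 or less in WT libraries with 12 markers, and without Des the order turns, at -7.94 or less in KO and -7.795 or more in WT libraries.

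Among the 5 tested genes whose profile over the 6 libraries was nearest to that of Nkd1 were Smtn, Csrp1, Cspg4 and Anln, out of 12763 named genes with a mean of at least 1 CPM. The measure is the root mean square difference of log2 CPM after each gene's mean is subtracted, and it ran from 0.0551 for Smtn to 0.110 for Anln. It includes the difference between the groups. Genes picked by it therefore share the direction and much of the library order of Nkd1 by selection, which is no separate evidence. Smtn, which encodes the smooth muscle protein smoothelin and is on the marker list, was at 385.7, 294.7 and 416.8 CPM in KO 1 to 3, against 159.4, 224.3 and 161.2 CPM in WT 1 to 3. Like Nkd1 it was lowest in KO 2 within the KO group and highest in WT 2 within the WT group. Its log2 fold change was 1.01 (SE 0.17, edgeR adjusted p = 0.0239) and was 0.09 with the smooth muscle covariate, of which Smtn is a part. Csrp1, a LIM protein gene, Cspg4, the NG2 proteoglycan gene of mural cells, and Anln, the gene of the actin-binding protein anillin, rose by 0.91 (SE 0.17), 0.92 (SE 0.17) and 0.91 (SE 0.16) on the log2 scale.

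**Figure D5:**
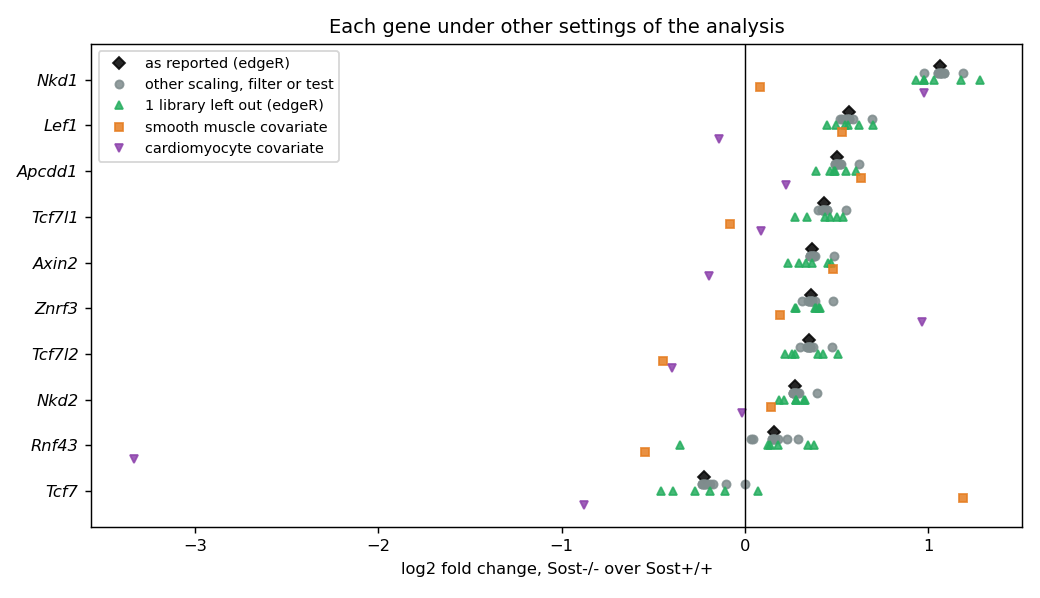
Log2 fold change, Sost-/- over Sost+/+, of each of the 10 genes (horizontal axis) as reported (black) and under other scalings, filters and tests (grey), with 1 library left out (green), and with a smooth muscle (orange) or cardiomyocyte (purple) covariate. Nkd1 lies between 0.93 and 1.28 with 1 library left out and at 0.08 with the smooth muscle covariate.

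Other parts of the pathway were described by 4 lists that share no gene with the 10. Beside them, of all tested genes 2.18% rose and 0.371% fell (edgeR), and 11.6% were higher and 8.62% lower at an unadjusted p under 0.05. Of 20 measured genes of beta-catenin, its destruction complex and proteins that act on them, 0 rose and 0 fell (edgeR). At an unadjusted p under 0.05, 1 was higher and 0 were lower, and the median log2 fold change was -0.0012. DESeq2 called none of the 20 either. Dvl2, which encodes a Dishevelled protein that NKD proteins bind, had the smallest p and was at 13.7, 13.5 and 12.5 CPM in KO 1 to 3, against 8.23, 12.4 and 9.63 CPM in WT 1 to 3. Its groups did not overlap, and its log2 fold change of 0.39 (SE 0.15, edgeR adjusted p = 0.202) did not pass, and was 0.25 without WT 1.

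Of 22 measured co-factors of TCF/LEF 1 rose and 0 fell, where 2.18% of all tested genes rose and 0.371% fell, and the median was 0.081. At an unadjusted p under 0.05, 2 were higher and 1 was lower, where 11.6% of all tested genes were higher and 8.62% lower. The member that rose was Tle2, which encodes a Groucho-type corepressor that binds TCF/LEF factors. Tle2 was at 32.9, 33.7 and 40.1 CPM in KO 1 to 3, against 19.5, 23.7 and 18.04 CPM in WT 1 to 3. The groups were well apart, with a log2 fold change of 0.80 (SE 0.13, edgeR adjusted p = 0.0194). With the smooth muscle score as covariate it was 0.21, with the cardiomyocyte score 0.16, and the edgeR call ended without WT 1 (adjusted p = 0.118), WT 3 (adjusted p = 0.0505) or KO 3 (adjusted p = 0.0846), at log2 fold changes of 0.75, 0.71 and 0.70. DESeq2 called Tle2 higher with each of the 6 libraries left out, with an adjusted p of 0.0019 at most, in fits added after seeing the data.

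In the R-spondin and LGR branch, whose proteins draw ZNRF3 and RNF43 off the receptors, 5 of 7 genes passed the filter on low counts. Of these 5, 0 rose and 0 fell. The median was 0.20. At an unadjusted p under 0.05, 1 was higher and 0 were lower (edgeR), where 11.6% of all tested genes were higher and 8.62% lower. DESeq2 and limma-voom called none of the 5. Rspo1, a secreted R-spondin, had the smallest p and was at 4.84, 5.92 and 7.57 CPM in KO 1 to 3, against 3.21, 4.73 and 3.57 CPM in WT 1 to 3. KO 1 was just above WT 2, and the log2 fold change of 0.67 (SE 0.22, edgeR adjusted p = 0.138) did not pass.

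Of 44 further genes that are often listed as beta-catenin targets 37 passed the filter on low counts. Of these 37, 0 rose and 0 fell (edgeR), and the median was 0.22. At an unadjusted p under 0.05, 10 were higher and 2 lower, where 11.6% of all tested genes were higher and 8.62% lower. Prickle1, a planar cell polarity gene, had the smallest p and was at 28.7, 25.95 and 29.9 CPM in KO 1 to 3, against 18.1, 22.1 and 20.6 CPM in WT 1 to 3. Its groups did not overlap, and at a log2 fold change of 0.47 (SE 0.10, edgeR adjusted p = 0.0502) it lay next to the threshold. DESeq2 called 4 members of this list higher, Prickle1, Id2, Fn1 and Adamts5, the last 3 of which are named after their values were seen. Of all tested genes DESeq2 called 5.05% higher.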

How the data were processed

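The deposited counts are whole read counts per gene symbol in 1 column per library, and the deposited normalized signal equals these counts over a constant for each library, as checked on the files. DRAGEN, HTSeq and DESeq2 (no versions) and build mm10 are listed in the submitters' processing notes. Annotation release and strand setting: not given in the sources used here. Per the labels' protocols, RNA came from snap-frozen roots by Trizol and a directional kit.

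Genes were kept with filterByExpr (minimum count 10, minimum total 15), scaled by TMM and tested over 15096 genes by edgeR 4.0.16's quasi-likelihood F-test (R 4.3.3), p-values being adjusted by Benjamini-Hochberg at a threshold of 0.05. The SE is the absolute log2 fold change divided by the square root of F. Samples were grouped by the genotype label, and replicate numbers follow accession order and pair nothing. Lengths and gene coordinates are from GENCODE M21 (GRCm38), promoter windows from RefSeq. Older symbols were matched through RefSeq synonyms for 4 list genes.

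Alternatives were other scalings and filters, DESeq2 1.42.0, limma 3.58.1 (voom, voom with library weights, and log2 of the deposited signal plus 1), robust dispersion, marker covariates (mean log2 CPM, prior count 2) and each library left out. DESeq2 with a library left out and the marker sum without Des were added after seeing the data. The fit was also run on simulated counts. Beyond library size, no difference between the simulated libraries of a group was shared by genes. How the calls depend on single libraries was therefore not covered by that run. No pair of libraries agreed within sampling noise (chi-square per degree of freedom at least 32.4). The genes and lists were chosen with earlier results of these data known. The named genes are Sost, the 10 genes, of each pathway list those called or else the 1 of smallest p, and the 5 nearest profiles, 1 of which is not reported here.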

Additional observations from a re-analysis of the deposited data

How the results depend on the processing

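The 10 genes gave 1 higher and 0 lower call as reported. The count of higher calls was 2 with total counts only, with the DESeq2 Wald test and with limma-voom with library weights, and 0 with the smooth muscle or cardiomyocyte covariate. It ran from 0 to 1 in edgeR and from 1 to 2 in DESeq2 with 1 library left out, and the count of lower calls was 0 throughout. Genes of the 4 pathway lists gave 1 higher call as reported, 2 with upper-quartile scaling, with a mean CPM of at least 1 or with robust dispersion, 3 with voom with library weights, 4 with every gene that has a count, 5 with total counts only or with DESeq2, and 0 with either covariate. With 1 library left out that count ran from 0 to 2 in edgeR and from 1 (without KO 3) over 3 (without WT 1), 5 (without KO 2) and 6 (without WT 3 or KO 1) to 7 (without WT 2) in DESeq2, and the count of lower calls, 0 as reported, from 0 to 1 in DESeq2. Over all tested genes, 385 passed as reported, 755 with total counts only, 1187 with DESeq2, 582 with voom with library weights and 0 with either covariate. With 1 library left out edgeR called from 0 (without WT 1, where 2262 genes had an unadjusted p under 0.05 and DESeq2 called 611) to 349, with 10 without KO 3, 118 without WT 3 and 218 without KO 2, and DESeq2 called 368 without KO 3, 849 without KO 2, 979 without WT 2, 1235 without KO 1 and 1311 without WT 3.

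Single genes that changed sign were, with the cardiomyocyte covariate, Axin2 (-0.20), Nkd2 (-0.014), Rnf43 (-3.33), Lef1 (-0.14) and Tcf7l2 (-0.40), and with the smooth muscle covariate Rnf43 (-0.54), Tcf7 (1.19), Tcf7l1 (-0.080) and Tcf7l2 (-0.45). Tcf7 was at 0.00075 with voom with library weights, and ran from -0.46 to 0.068 with 1 library left out in edgeR, changing sign without WT 3 (0.064 in DESeq2). Rnf43 ran from -0.36 to 0.37, with the change of sign without KO 3 (-0.36 in DESeq2 too). The difference in the Tcf7l2 share ran from -1.68 to 1.81 percentage points with 1 library left out, changing sign without WT 3 and without KO 3 (-0.30), and the other 3 differences kept their sign, at 3.34 to 7.33 for Tcf7l1, -9.35 (without WT 2) to -3.24 (without WT 3) for Tcf7 and 0.061 (without KO 2) to 0.30 for Lef1. The difference in the ratio of Nkd1 to smooth muscle markers, 0.37 to 0.50 with 1 library left out, turned to -0.41 with Des left out of the sum. The cause of the other changes was not tested. Znrf3 and Apcdd1 kept their sign in all 24 alternatives, as did Nkd1. Lef1 has no value with a mean CPM of at least 1. Genes holding a TCF motif numbered 0, and 1 with the core CTTTGA. No paired analysis was possible because the labels give no replicate numbers that the groups share.

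Lef1 and Rnf43 had low counts, 24 to 46 and 56 to 130 per library. The SE of their log2 fold changes, 0.30 and 0.34, was the highest of the 10, and that of Rnf43 was 0.27 without KO 3.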
